A study of Mus musculus with 6 samples.

Results

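The genes described here are 10 that encode signals for monocytes and macrophages, the chemokines Ccl2, Ccl3, Ccl4, Ccl6, Ccl7, Ccl8, Ccl9, Ccl12 and Cx3cl1 and the growth factor Csf1. They were taken by gene symbol, each symbol matching 1 row, from a table of 35275 genes measured by bulk RNA sequencing of mouse tongue. Aim2 knockout mice (Aim2 KO) gave 3 libraries and wild type mice another 3, numbered 1 to 3 in each genotype. All mice had drunk water with 4NQO (4-nitroquinoline 1-oxide), a DNA-damaging carcinogen that produces squamous lesions of the oral epithelium, at 100 µg/ml for 20 weeks. Both genotypes therefore carry the exposure, and no unexposed tongue was analysed here. The labels give no strain, age, sex or knockout allele, and do not state whether a mouse gave more than 1 library. P-values thus reflect how far these libraries vary, which may be technical. Library names share 1 stem within each genotype, its meaning is not stated, and genotype and a shared origin of the libraries cannot be told apart.

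Circulating monocytes leave the blood along gradients of chemokines, small secreted proteins that act through G protein-coupled receptors. The monocyte chemoattractant proteins (MCPs) are encoded in mouse by Ccl2, Ccl7, Ccl8 and Ccl12. Of these, Ccl2, Ccl7 and Ccl12 signal through CCR2, which draws inflammatory monocytes out of bone marrow and into tissue, while mouse Ccl8 is best known as a ligand of CCR8. Ccl3 and Ccl4 are macrophage inflammatory proteins, of which Ccl3 binds CCR1. Ccl6 and Ccl9 are rodent chemokines that act on CCR1. Cx3cl1 (fractalkine) is made as a membrane-anchored protein by epithelium and endothelium and binds CX3CR1, and Csf1 keeps macrophages alive through CSF1R.

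Except for Cx3cl1 and Csf1, the genes lie in 2 blocks of chromosome 11 (coordinates as in the deposited table, read as mouse build GRCm38). In the first block, Ccl2 (82035571 to 82037453), Ccl7 (82045712 to 82047525), Ccl12 (82101845 to 82103400) and Ccl8 (82115185 to 82116799) stand in this order on the plus strand within 81.2 kb. The eotaxin gene Ccl11 lies between Ccl7 and Ccl12. The second block, 91.8 kb long and 1456 kb further along, holds Ccl9 (83572919 to 83578636), Ccl6 (83587882 to 83593087) and Ccl3 (83647844 to 83649355) on the minus strand and Ccl4 (83662584 to 83664683) on the plus strand. Cx3cl1 is on chromosome 8 (94772009 to 94782423, plus strand) and Csf1 on chromosome 3 (107741048 to 107760469, minus strand).

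The promoters of 2 pairs of neighbours are shown. Ccl6 and Ccl9 kept a nearly constant ratio over the libraries, as described further on. The ratio of the adjacent Ccl8 and Ccl12 ran from 1.80 to 33.6, but Ccl12 had only 1 to 18 reads in a library. The ratios of 33.6 and 32.6 in wild type replicates 1 and 3 rested on 1 and 2 Ccl12 reads, so this spread may be counting error. RefSeq promoters (build GRCm38.p6, 250 bases before to 50 after the annotated start) matched 7 of the 10 genes, not Ccl2, Ccl4 or Ccl7. Capitals mark matches to TATAAA, to the AP-1 motif TGANTCA or to the kappaB motif bound by NF-kB factors, on either strand. The sequences are from chr11:82114935-82115234 (Ccl8, plus strand), chr11:82101595-82101894 (Ccl12, plus strand), chr11:83593038-83593337 (Ccl6, minus strand) and chr11:83578587-83578886 (Ccl9, minus strand).
Ccl8: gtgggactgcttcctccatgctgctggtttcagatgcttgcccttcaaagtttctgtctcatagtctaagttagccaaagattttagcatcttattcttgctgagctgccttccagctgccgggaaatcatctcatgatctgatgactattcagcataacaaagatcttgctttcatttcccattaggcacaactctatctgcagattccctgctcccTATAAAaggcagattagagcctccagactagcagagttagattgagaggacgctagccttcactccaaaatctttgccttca
Ccl12: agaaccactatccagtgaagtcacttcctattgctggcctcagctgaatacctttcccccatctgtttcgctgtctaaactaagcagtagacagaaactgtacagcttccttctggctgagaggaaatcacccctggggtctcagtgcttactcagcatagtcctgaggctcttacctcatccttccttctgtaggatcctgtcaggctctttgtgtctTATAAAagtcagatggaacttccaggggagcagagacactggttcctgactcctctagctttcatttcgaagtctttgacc
Ccl6: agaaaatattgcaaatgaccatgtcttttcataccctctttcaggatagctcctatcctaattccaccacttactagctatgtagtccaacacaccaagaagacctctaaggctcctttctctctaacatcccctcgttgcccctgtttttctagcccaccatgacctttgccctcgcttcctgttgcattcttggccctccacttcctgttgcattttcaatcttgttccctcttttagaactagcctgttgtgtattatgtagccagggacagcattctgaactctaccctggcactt
Ccl9: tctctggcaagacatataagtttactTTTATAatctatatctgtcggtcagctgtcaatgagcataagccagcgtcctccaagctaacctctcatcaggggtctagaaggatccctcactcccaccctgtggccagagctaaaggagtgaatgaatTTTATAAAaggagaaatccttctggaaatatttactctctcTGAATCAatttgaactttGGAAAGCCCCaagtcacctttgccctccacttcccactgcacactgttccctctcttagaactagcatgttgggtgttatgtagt
Ccl8 and Ccl12 each hold 1 TATAAA, which begins 32 bases before the start in Ccl8 and 31 bases before it in Ccl12. Their longest identical run is 11 bases, and that of Ccl6 and Ccl9, which both lie on the minus strand, is 13 bases. Ccl9 holds a kappaB match from position -35 to -26 (the start being 0), an AP-1 match from -53 to -47 and 3 TATAAA matches, of which 2 overlap, while Ccl6 holds none of these motifs. Of the other matched genes, Csf1 holds a kappaB match from -154 to -145 and Cx3cl1 a TATAAA match from -6 to -1. Among 32544 promoters of the same length, 13.6% hold TATAAA, 7.79% the AP-1 motif and 8.49% the kappaB motif. Neither the interferon-stimulated response element GAAANNGAAA (3.45% of promoters) nor the gamma-activated site TTCNNNGAA (8.33%) occurs in the windows of the 7 genes. A match is a description of the letters, not a site shown to be used.

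The libraries held 21959204 to 25369400 reads. Aim2, the targeted gene and itself a cytosolic DNA sensor, rested on 3, 4 and 10 reads in Aim2 KO and on 14, 25 and 30 reads in wild type, with no overlap. Values are FPKM, read counts scaled by gene length and by library depth, so that levels of different genes are per length. Aim2 KO replicate 1 stood apart from the other libraries. The 10 skeletal muscle markers summed to 8160 FPKM in it, to 15801 and 14911 FPKM in the other two Aim2 KO libraries, and to between 13741 and 16187 FPKM in wild type. It was also the lowest of the 6 libraries for 34.3% of the 12144 genes that averaged 1 FPKM or more. For 21.9% of these genes it was the highest, beside 22.8% and 21.6% for Aim2 KO replicates 2 and 3. The 6 basal keratinocyte markers summed to 10626 FPKM in it, against 5120 to 7721 FPKM in the other libraries. The log2 differences of the 10 genes, and each list median that is reported, are therefore also given without it.

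The level of the MCP genes together was higher in every Aim2 KO library, although different genes made it up. Ccl2, Ccl7, Ccl8 and Ccl12 summed to 20.0, 15.5 and 19.3 FPKM in Aim2 KO replicates 1 to 3, against 6.07, 6.37 and 6.36 FPKM in wild type replicates 1 to 3. The ratio of the means was 2.91, and the lowest Aim2 KO sum was 2.43 times the highest wild type sum. This sum was formed after the values were seen and has no test. In Aim2 KO replicate 1, Ccl2 gave 81.6% of it and Ccl8 gave 5.21%. In Aim2 KO replicates 2 and 3, by contrast, Ccl8 gave 68.9% and 56.7%, and Ccl2 gave 17.2% and 26.9%. Wild type libraries had 42.0% to 75.2% from Ccl8 and 20.9% to 43.4% from Ccl2. Without Ccl2 the sums were 3.67, 12.8 and 14.1 FPKM in Aim2 KO, against 3.44, 4.45 and 5.03 FPKM in wild type, so that Aim2 KO replicate 1 lay inside the wild type range (ratio of the means 2.37). Without that library, all 4 genes together gave a ratio of 2.78.

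**Figure D1:**
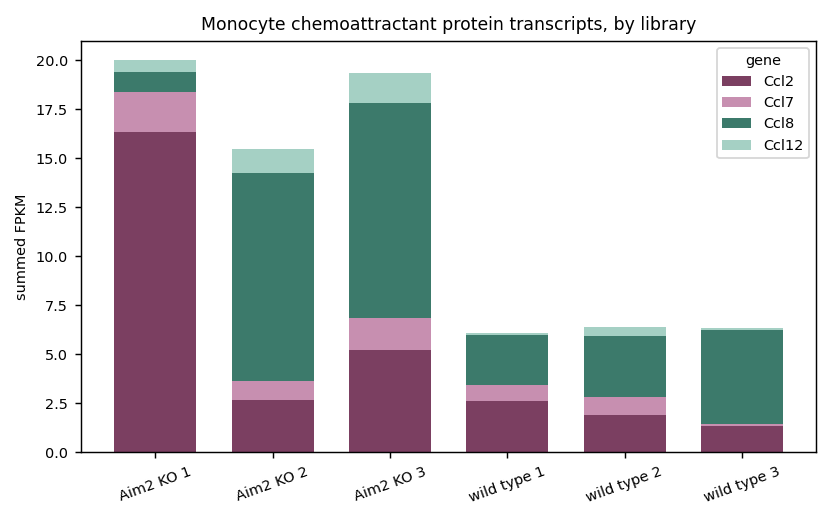
Summed FPKM (y axis) of the 4 monocyte chemoattractant protein genes in each of the 6 libraries (x axis), with 1 colour per gene stacked in the bar. The Aim2 KO bars reach 20.0, 15.5 and 19.3 FPKM and the wild type bars 6.07, 6.37 and 6.36 FPKM, with Ccl2 filling most of the bar of Aim2 KO replicate 1 and Ccl8 most of the bars of Aim2 KO replicates 2 and 3.

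Ccl2, the main ligand that calls CCR2-bearing monocytes into inflamed tissue, was at 16.3, 2.66 and 5.19 FPKM in Aim2 KO replicates 1 to 3, against 2.64, 1.92 and 1.33 FPKM in wild type replicates 1 to 3. The groups did not overlap, but Aim2 KO replicate 2 lay just above wild type replicate 1. These values rested on 403, 73 and 125 reads in Aim2 KO and on 71, 51 and 37 reads in wild type. On the log2(FPKM + 1) scale Aim2 KO minus wild type came to 1.33 (SE 0.51, limma adjusted p = 0.9998). It was 0.71 (SE 0.26, limma adjusted p = 0.580) without Aim2 KO replicate 1.

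Ccl7, a second CCR2 ligand, was at 2.05, 0.949 and 1.65 FPKM in Aim2 KO, against 0.813, 0.926 and 0.0984 FPKM in wild type. As for Ccl2, the 3 Aim2 KO libraries were the upper 3, in the same order of replicates 1, 3 and 2. Only 37, 19 and 29 reads in Aim2 KO and 16, 18 and 2 reads in wild type stood behind these values, and Ccl7 reached a mean of 1 FPKM through the Aim2 KO libraries alone. Aim2 KO minus wild type was 0.68 on the log2 scale (SE 0.27, limma adjusted p = 0.9998), 0.54 without Aim2 KO replicate 1 and 0.42 without wild type replicate 3. With a pseudocount of 0.1 FPKM it was 1.47, and by voom on the reads 1.7.

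Ccl12, a further CCR2 ligand of the mouse, was at 0.578, 1.19 and 1.53 FPKM in Aim2 KO, against 0.0758, 0.460 and 0.147 FPKM in wild type. The groups did not overlap, and here Aim2 KO replicate 1 was the lowest of its group. Its reads numbered 7, 16 and 18 in Aim2 KO and 1, 6 and 2 in wild type. Pooled over libraries, its read rate in Aim2 KO was 4.87 times the wild type rate (exact 95% binomial interval 2.33 to 11.4). This interval, like the others below, covers counting error only. Ccl12 lay below 1 FPKM on average, and in the fit of all genes without that filter its log2 difference came to 0.76 (SE 0.20, limma adjusted p = 0.9997). Without Aim2 KO replicate 1 it was 0.95, with a pseudocount of 0.1 FPKM 1.96 and by voom 2.28. Ccl12 had the smallest unadjusted p of the 10 genes (0.00796).

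Ccl8 was at 1.04, 10.6 and 11.0 FPKM in Aim2 KO, against 2.55, 3.06 and 4.78 FPKM in wild type. Aim2 KO replicate 1 was thus the lowest of all 6 libraries and the other two Aim2 KO libraries were the highest. Its reads numbered 12, 136 and 123 in Aim2 KO and 32, 38 and 62 in wild type. The log2 difference was 0.59 (SE 0.64, limma adjusted p = 0.9998). Without Aim2 KO replicate 1 it was 1.43 (SE 0.20, limma adjusted p = 0.0535), which did not pass the threshold of 0.05, and without replicate 2 or 3 of Aim2 KO it was 0.18 or 0.16. Ccl2 was 15.7 times the level of Ccl8 in Aim2 KO replicate 1, 0.250 and 0.474 times in replicates 2 and 3, and 1.03, 0.626 and 0.278 times in wild type.

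**Figure D2:**
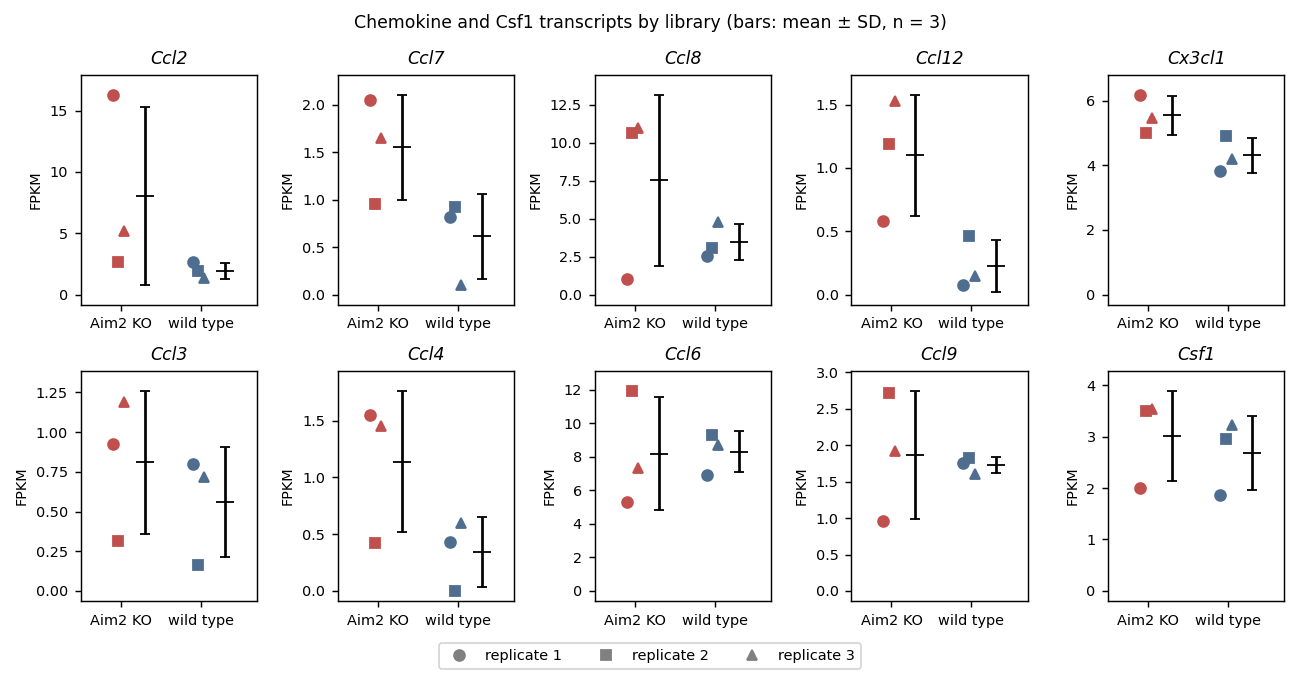
FPKM (y axes) of the 10 genes in Aim2 KO (red, left) and wild type (blue, right), with 1 panel per gene, 1 symbol shape per replicate number, and bars for mean ± SD (n = 3). Ccl2, Ccl7, Ccl12 and Cx3cl1 have all Aim2 KO symbols above the wild type symbols, and the circle of Aim2 KO replicate 1 is the highest for Ccl2 (16.3 FPKM) and the lowest for Ccl8 (1.04 FPKM).

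The macrophage inflammatory protein genes Ccl3 and Ccl4 were among the lowest of the 10 genes. Ccl3 was at 0.927, 0.313 and 1.19 FPKM in Aim2 KO, against 0.797, 0.161 and 0.720 FPKM in wild type, with overlap. Ccl4 was at 1.55, 0.424 and 1.45 FPKM in Aim2 KO, against 0.431, 0 and 0.597 FPKM in wild type. Replicates 1 and 3 of Aim2 KO were the upper 2 libraries for both genes, and Aim2 KO replicate 2 lay inside the wild type range. Both had a mean under 1 FPKM and rested on at most 23 reads in a library. The 0 reads of Ccl4 in wild type replicate 2 allow a level of up to 0.187 FPKM (3 reads). Pooled over libraries, the Ccl4 read rate in Aim2 KO was 3.20 times that in wild type (exact 95% binomial interval 1.82 to 5.92), and that of Ccl3 was 1.40 times (0.864 to 2.29). Without the filter the log2 differences were 0.65 (SE 0.28) for Ccl4 and 0.21 (SE 0.25) for Ccl3 (limma adjusted p = 0.9997 each). For Ccl4 the difference was 0.50 without Aim2 KO replicate 1, 1.72 with a pseudocount of 0.1 FPKM and 2.26 by voom. For Ccl3 it was 0.15 without Aim2 KO replicate 1, 0.0551 without Aim2 KO replicate 3, 0.0092 without wild type replicate 2, 0.50 with that pseudocount and 0.56 by voom.

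Ccl6, which had the highest mean level of the 10 genes, did not separate the genotypes. It was at 5.30, 11.9 and 7.34 FPKM in Aim2 KO, against 6.92, 9.30 and 8.70 FPKM in wild type, where the 2 extremes of all libraries were both Aim2 KO. Ccl9 behaved alike at a lower level, with 0.959, 2.72 and 1.92 FPKM in Aim2 KO against 1.76, 1.82 and 1.60 FPKM in wild type. For both genes Aim2 KO replicate 1 was the lowest library and Aim2 KO replicate 2 the highest, and the ratio of Ccl6 to Ccl9 stayed between 3.81 and 5.52 in the 6 libraries. The log2 differences were -0.07 (SE 0.25) for Ccl6 and 0.02 (SE 0.23) for Ccl9 (limma adjusted p = 0.9998 each). Leaving out Aim2 KO replicate 1 moved them to 0.17 and 0.27. Reads of Ccl6 could include those of E230016K23Rik, which overlaps it on the other strand and was counted at 0.131 to 0.747 FPKM.

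Cx3cl1 was the steadiest of the 10 genes across libraries. It was at 6.19, 4.99 and 5.46 FPKM in Aim2 KO, against 3.83, 4.90 and 4.20 FPKM in wild type, on 312 to 462 reads in a library. The groups did not overlap, although Aim2 KO replicate 2 exceeded wild type replicate 2 by less than the SD of either group. Means in FPKM were 5.55 ± 0.605 in Aim2 KO and 4.31 ± 0.543 in wild type (SD, n = 3 each), a ratio of 1.29. On the log2 scale the genotypes differed by 0.30 (SE 0.13, limma adjusted p = 0.9998), or by 0.23 without Aim2 KO replicate 1.

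Csf1 was at 2.00, 3.49 and 3.54 FPKM in Aim2 KO, against 1.87, 2.95 and 3.22 FPKM in wild type. Replicate 1 was the lowest library of each genotype, and the groups overlapped. The log2 difference of 0.12 (SE 0.22, limma adjusted p = 0.9998) became 0.32 without Aim2 KO replicate 1 and -0.05 without wild type replicate 1. Il34, the other ligand of CSF1R and a product of keratinocytes, was at 7.44, 8.98 and 6.52 FPKM in Aim2 KO, against 9.56, 9.08 and 10.5 FPKM in wild type. All Aim2 KO libraries were thus below all wild type libraries (log2 difference -0.32, SE 0.13, limma adjusted p = 0.9998).

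By mean level over the 6 libraries the order was Ccl6 (8.25 FPKM), Ccl8 (5.51), Ccl2 (5.01), Cx3cl1 (4.93), Csf1 (2.84), Ccl9 (1.80), Ccl7 (1.08), Ccl4 (0.741), Ccl3 (0.685) and Ccl12 (0.663 FPKM). This order leans on the Aim2 KO libraries. In wild type alone the mean was 8.31 FPKM for Ccl6, 4.31 for Cx3cl1, 3.46 for Ccl8, 2.68 for Csf1 and 1.96 FPKM for Ccl2. Of neighbours in the order over the 6 libraries, only Cx3cl1 (3.83 to 6.19 FPKM) and Csf1 (1.87 to 3.54 FPKM) had ranges over the 6 libraries that did not overlap. The spread reached an SD of 5.69 FPKM for Ccl2 and 4.27 FPKM for Ccl8.

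Against the whole table, 9 of the 10 genes had a positive log2 difference and 4 (Ccl2, Ccl7, Ccl12 and Cx3cl1) were higher in Aim2 KO with no overlap. For each of these 4, the exact permutation test gave p = 0.1 (two-sided), the smallest possible with 3 against 3. Of the 22220 genes with a read in any library, 4.78% were higher in Aim2 KO with no overlap and 55.7% had a positive difference. In the same fit without a filter the median log2 difference was 0.45 over the 10 genes and 0.01 over all genes, and without Aim2 KO replicate 1 it was 0.41 and 0.03. Since 3 of the 4 sit in 1 gene block and share libraries, they are not independent. None of the 10 passed the threshold of an adjusted p under 0.05. Over the 12144 genes tested with the filter, 0.00823% passed (1 gene, limma), and of the 7 of the 10 genes among them 0 passed by limma or by voom, with 3 at an unadjusted p under 0.05 (2.5% of the genes tested), 1 of them being Ccl7, which the filter kept only through its Aim2 KO values. In the fit without the filter 0 of the 22220 genes passed (0%). With fewer libraries, groups that do not overlap are more frequent among all genes too. Without Aim2 KO replicate 1, 7 of the 10 genes were higher with no overlap (15.9% of the 22220 genes), the added ones being Ccl8, Ccl9 and Csf1. Without Aim2 KO replicate 2 there were 6 (10.4%), with Ccl3 and Ccl4 added. Without Aim2 KO replicate 3 (7.61%) or without wild type replicate 1 (8.08%), 2 (7.83%) or 3 (10.2%) no gene was added to the 4. The 4 themselves had to remain, because groups that do not overlap cannot come to overlap when a library is removed.

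**Figure D3:**
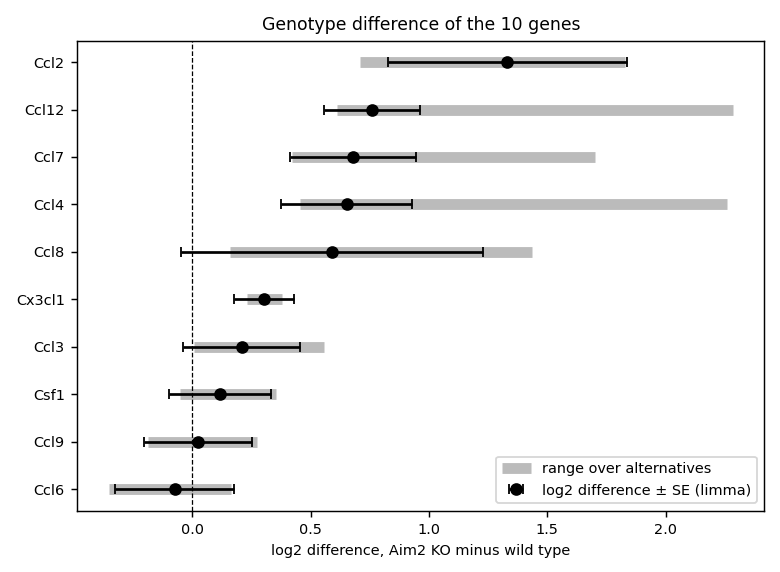
Log2 difference, Aim2 KO minus wild type (x axis, log2(FPKM + 1) scale), with its SE for each of the 10 genes (y axis), and in grey the range over the alternative settings, including each library left out. The ranges of Ccl2 (0.71 to 1.83), Ccl12, Ccl7, Ccl4, Ccl8, Cx3cl1 and Ccl3 lie above 0, and those of Csf1, Ccl9 and Ccl6 cross it.

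Receptors of these ligands mark the cells that can answer them. Ccr2, which marks inflammatory monocytes, was at 0.935, 1.46 and 1.94 FPKM in Aim2 KO, against 0.691, 0.661 and 0.757 FPKM in wild type. Ccr1 was at 0.799, 0.890 and 1.25 FPKM in Aim2 KO, against 0.632, 0.451 and 0.543 FPKM in wild type. For both genes the groups did not overlap, and for each the highest library was Aim2 KO replicate 3. Csf1r, carried by nearly all macrophages, was at 2.66, 4.51 and 4.77 FPKM in Aim2 KO, against 2.35, 2.77 and 2.83 FPKM in wild type. Cx3cr1 was at 0.357, 0.740 and 0.782 FPKM in Aim2 KO, against 0.185, 0.365 and 0.222 FPKM in wild type. In both, replicate 1 was the lowest Aim2 KO library and lay within the wild type range. Ccr8 was at 0.154, 0.554 and 0.433 FPKM in Aim2 KO, against 0, 0.285 and 0.170 FPKM in wild type, and Ccr3 was under 0.04 FPKM in every library. None of the 6 receptors described passed the threshold, and 2 (Ccr2 and Csf1r) had a mean of at least 1 FPKM, Ccr2 only through the Aim2 KO libraries.

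Atypical receptors, which bind chemokines without G protein signalling and so remove or hold them, did not separate the genotypes. In mean FPKM ± SD (n = 3 each), Ackr3 was at 6.28 ± 2.41 in Aim2 KO and 6.62 ± 1.38 in wild type. Ackr1, the carrier on venules, was at 1.94 ± 0.914 in Aim2 KO and 1.43 ± 0.664 in wild type. Ackr4 was at 1.09 ± 0.648 in Aim2 KO and 1.51 ± 0.505 in wild type. Ccrl2 was at 1.45 ± 0.827 in Aim2 KO and 1.04 ± 0.0982 in wild type, and Ackr2, which scavenges inflammatory CC chemokines, was at 0.726 ± 0.282 in Aim2 KO and 0.540 ± 0.251 in wild type. Of the 4 that averaged 1 FPKM or more, 2 had the higher mean in Aim2 KO and 2 in wild type, and 0 passed. Their median log2 difference was 0.05. Without Aim2 KO replicate 1 it was 0.31, with 3 higher and 1 lower.

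Because RNA came from whole tongue, more cells of a type and more RNA per cell cannot be told apart. The 15 macrophage markers summed to 158, 222 and 237 FPKM in Aim2 KO replicates 1 to 3, against 154, 161 and 182 FPKM in wild type. Of these, 12 were tested, 9 of them were higher and 3 lower in Aim2 KO (median log2 difference 0.32, and 0.52 without Aim2 KO replicate 1, 0 past the threshold), and 0 were at 0 in all libraries. Aif1, which had the smallest unadjusted p of this list, was at 1.93, 2.97 and 3.38 FPKM in Aim2 KO, against 0.790, 0.895 and 0.541 FPKM in wild type. Its groups did not overlap (limma adjusted p = 0.504), but it passed the filter only through the Aim2 KO libraries. Adgre1, which encodes F4/80, was at 0.287, 1.37 and 1.45 FPKM in Aim2 KO, against 0.552, 0.698 and 0.972 FPKM in wild type, with overlap. The 9 monocyte markers summed to 9.0, 22.1 and 20.1 FPKM in Aim2 KO, against 11.9, 14.9 and 14.1 FPKM in wild type. Fn1 was the largest term of this sum in every library except Aim2 KO replicate 1. It was at 1.96, 9.70 and 7.03 FPKM in Aim2 KO, against 4.32, 7.84 and 5.99 FPKM in wild type. Plac8, the largest term in Aim2 KO replicate 1, was at 4.39, 4.38 and 4.99 FPKM in Aim2 KO, against 4.15, 3.00 and 3.19 FPKM in wild type, with no overlap. Of the 4 monocyte markers tested, 2 were higher, 2 lower and 0 past the threshold, and 0 of the 9 were at 0 in all libraries. Without the filter 6 of the 9 were higher and 3 (Fn1, F13a1 and Vcan) lower. The directions depended on Aim2 KO replicate 1. Without that library, 4 of the 4 tested were higher and 0 lower, and their median log2 difference went from 0.15 to 0.43. The differences of Fn1, F13a1 and Vcan then came to 0.43, 0.44 and 0.04. Ly6c2, the defining marker of inflammatory monocytes, was at 0.199, 0.224 and 0.425 FPKM in Aim2 KO, against 0.106, 0 and 0.0294 FPKM in wild type, on 12, 15 and 25 reads in Aim2 KO and 7, 0 and 2 reads in wild type. Among the Aim2 KO libraries both sums were lowest in replicate 1, as were Ccl8, Ccl12, Ccl6, Ccl9 and Csf1, while Ccl2, Ccl7, Ccl4 and Cx3cl1 were highest in it. Markers of connective tissue and muscle were low in it too, with the 7 fibroblast markers at 123 FPKM in Aim2 KO replicate 1, 281 and 261 FPKM in the other two Aim2 KO libraries and 158 to 195 FPKM in wild type. The part of these shifts in the chemokine values was not tested.

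**Figure D4:**
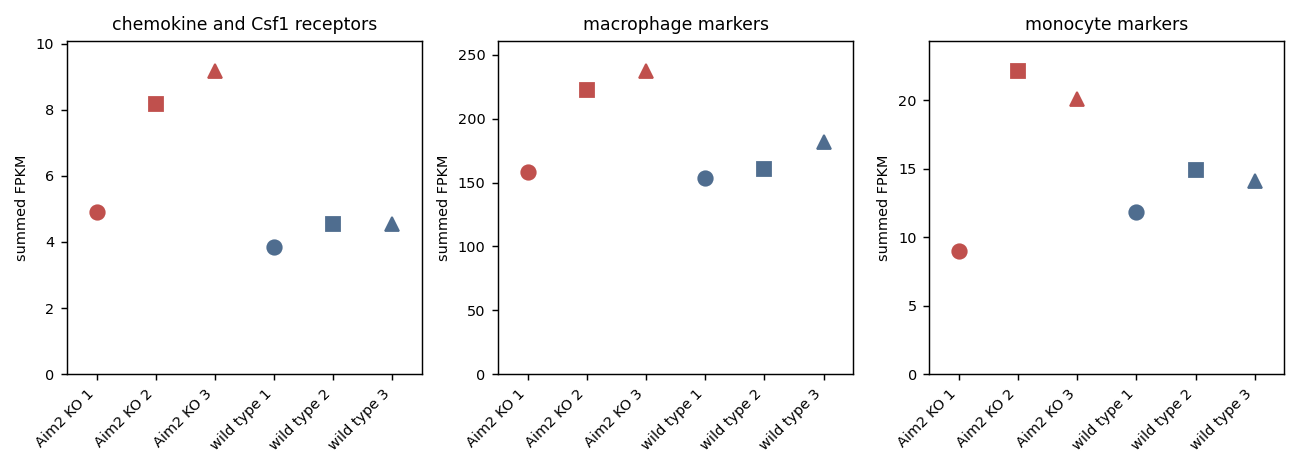
Summed FPKM (y axes) in each of the 6 libraries (x axes) of 6 chemokine and Csf1 receptors, of 15 macrophage markers and of 9 monocyte markers, with Aim2 KO in red and wild type in blue. The receptor sums are 4.92, 8.19 and 9.17 FPKM in Aim2 KO and at most 4.55 FPKM in wild type, while the marker sums of Aim2 KO replicate 1 (158 and 9.0 FPKM) lie inside or below the wild type range. Fn1 is the largest term of the monocyte sum in every library except Aim2 KO replicate 1.

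Genes with profiles like those of the chemokines were sought over the 6 libraries, by the root mean square (RMS) difference of log2(FPKM + 1) values centred on their mean, among 11405 other genes. The nearest to Ccl2 was Tnfaip3 (RMS difference 0.36, where the RMS of the Ccl2 profile itself is 0.95), which encodes the NF-kB inhibitor A20. It was at 6.77, 1.14 and 2.28 FPKM in Aim2 KO, against 1.45, 0.758 and 1.36 FPKM in wild type. Next were Ccl20, a ligand of CCR6 (0.46), and the cytokine Il17a (0.48), which both peaked in Aim2 KO replicate 1 as well, at 6.92 and 5.53 FPKM, against at most 1.81 FPKM for either gene in any other library. Ccl7 was nearest to Irf1, an interferon-induced transcription factor (RMS difference 0.16 of 0.47). Irf1 was at 9.55, 7.30 and 9.50 FPKM in Aim2 KO, against 5.29, 4.88 and 3.45 FPKM in wild type. Snx20 and Ifitm3 followed.

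The nearest to Ccl8 were the globin gene Hbb-bs (RMS difference 0.36 of 0.92), Apod and the mast cell protease gene Mcpt4. Hbb-bs was at 22.6, 153 and 100 FPKM in Aim2 KO, against 66.8, 55.2 and 63.0 FPKM in wild type, so that Aim2 KO replicate 1 was again the lowest library and the other two Aim2 KO libraries the highest. Ccl6 was nearest to Wipi1, Cpeb1 and Klf9 (RMS differences 0.07 to 0.08 of 0.33) and Ccl9 to Nceh1, Crebrf and Slc46a3 (0.05 to 0.06 of 0.27). Cx3cl1 was nearest to Chaf1b, Eif5a2 and Cadm1 (0.06 to 0.07 of 0.19), and Csf1 to Rasef, Fst and H2-T24 (0.05 to 0.06 of 0.27). Likeness over 6 libraries that differ in tissue make-up is a description.

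**Figure D5:**
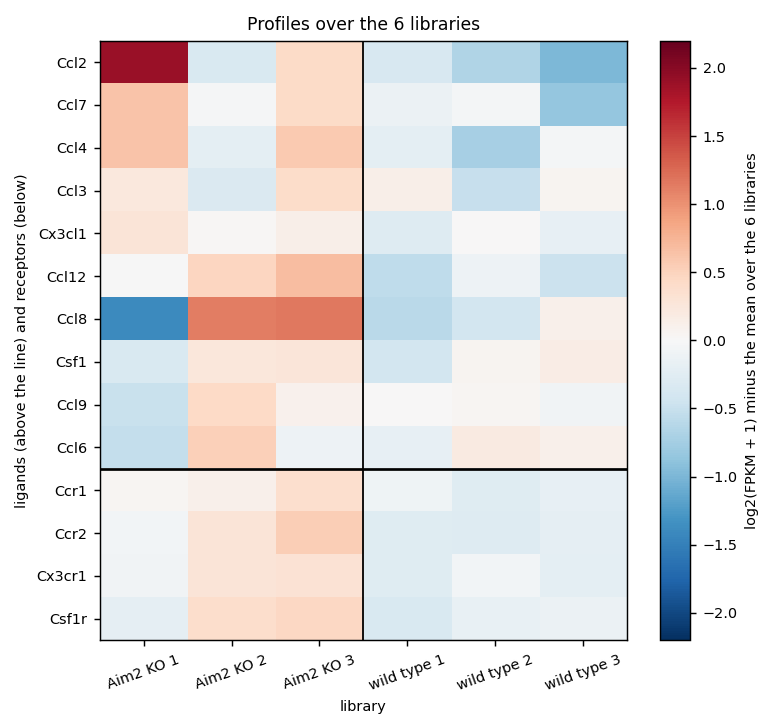
Colour gives log2(FPKM + 1) minus the mean over the 6 libraries, for the 10 ligand genes (rows above the line) and 4 of their receptors (rows below it), with Aim2 KO libraries left of the vertical line and wild type libraries right of it. Aim2 KO replicate 1 is high for Ccl2, Ccl7 and Ccl4 and low for Ccl8, Ccl9 and Ccl6, while Ccr2 and Ccr1 have each Aim2 KO library above each wild type library.

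Ccl2, Ccl3 and Ccl4 are among the genes that NF-kB factors induce, and Ccl7, Ccl8 and Ccl12 are also induced by interferons, so both responses were examined. In a list of 16 NF-kB response genes, 11 of 14 tested were higher and 3 lower in Aim2 KO (median log2 difference 0.22, 0 past the threshold), against a median of 0.02 over all 12144 genes tested. Without Aim2 KO replicate 1, 9 were higher and 5 lower, and the median was 0.06 over the list and 0.06 over all genes tested. Icam1, an adhesion receptor for leukocytes, was at 12.0, 5.54 and 8.62 FPKM in Aim2 KO, against 4.07, 3.96 and 4.10 FPKM in wild type (log2 difference 0.89, limma adjusted p = 0.9998, and 0.65 without Aim2 KO replicate 1). Like Ccl2 it was highest in Aim2 KO replicate 1 and then in replicate 3. Tnf, chosen after its values were seen, was at 3.33, 0.195 and 0.806 FPKM in Aim2 KO, against 1.04, 0.628 and 0.433 FPKM in wild type, and Cxcl2, chosen likewise, reached 8.46 FPKM in Aim2 KO replicate 1, with 0.228 to 2.69 FPKM elsewhere. In the list of 13 interferon response genes all 13 were higher (median 1.11, and 1.36 without Aim2 KO replicate 1, 0 past the threshold). Markers of T and NK cells were higher too. These 13 markers summed to 11.1, 9.45 and 18.7 FPKM in Aim2 KO, against 3.89, 5.03 and 2.99 FPKM in wild type, with no overlap. Of the 3 tested all 3 were higher (0 past the threshold), but Cd2 and Trac passed the filter only through Aim2 KO, and 0 of the 13 were at 0 in all libraries. Their part in the interferon and chemokine values was not tested. Among the interferon response genes, Ifi47 was at 2.69, 4.71 and 5.72 FPKM in Aim2 KO, against 1.34, 1.59 and 1.32 FPKM in wild type. Gbp2 was at 8.48, 12.3 and 25.6 FPKM in Aim2 KO, against 5.19, 5.85 and 3.32 FPKM in wild type. Replicate 1 was the lowest Aim2 KO library for both, as it was for Ccl8 and Ccl12. In the same list, Irf1 and Cxcl10 were instead lowest in replicate 2 of the Aim2 KO libraries, as was Ccl7.

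Other CC chemokine genes were set beside these, of which Ccl11 lies in the first block. Ccl11, which attracts eosinophils was at 8.49, 12.9 and 12.6 FPKM in Aim2 KO, against 7.90, 8.83 and 8.20 FPKM in wild type, and the groups overlapped through Aim2 KO replicate 1 (log2 difference 0.39, SE 0.16, limma adjusted p = 0.9998). Ccl5, 42.4 kb from Ccl9 and outside the second block, was at 0.996, 2.93 and 4.23 FPKM in Aim2 KO, against 0.792 and 0.617 FPKM in wild type replicates 1 and 2, and it was listed at 0 in wild type replicate 3. Ccl22, a dendritic cell product, was at 3.84, 1.79 and 2.08 FPKM in Aim2 KO, against 1.78, 1.23 and 1.74 FPKM in wild type. Of 7 tested genes of the list 6 were higher and 1 lower (median log2 difference 0.39, and 0.19 without Aim2 KO replicate 1), with 0 past the threshold. Of these, Ccl5 and Ccl20 passed the filter only through the Aim2 KO libraries, where they are high, and so did Tnf, Rsad2, Aif1 and Ccr2 of the lists above. For such genes the filter itself favours the higher count. Between transcripts of any 2 of the 10 genes, the longest identical run was 25 bases (Ccl6 and Ccl9, GENCODE M21), followed by 23 bases (Ccl2 and Ccl7).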

How the data were processed

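Total RNA of tongues was made into libraries by a sequencing company, per the labels' protocols. The values deposited by the authors are FPKM, with 1 column per library. For aligner, counter, strandedness and annotation: not given in the sources used here. FPKM times gene length gave whole reads (within 0.01 of a read for 100% of values above 0), which set the depth and the counting intervals, and reads without molecular identifiers are not independent molecules. Gene IDs numbering 34490 are in GENCODE M21, and 9 of the 10 genes have identical coordinates there (all but Cx3cl1), so coordinates were read as GRCm38.

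Genotypes were compared on log2(FPKM + 1) by limma (version 3.58.1, run in R 4.3.3), its trend option on, for 12144 genes averaging 1 FPKM or more, two-sided, with Benjamini-Hochberg adjustment over all of them and a threshold of 0.05. Ccl3, Ccl4 and Ccl12 fell below the filter and were read from the same fit over all 22220 genes with a read. The fit was tested on simulated data. Lists are described by counts and medians, with no list test.

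The 10 genes, the lists and the comparisons were chosen with earlier results of these data known. The text names the 10 genes, their receptors (1 is not reported here) and the atypical receptors, up to 4 genes per list by smallest p, and the 3 most alike genes of each of the 7 tested genes. Other genes, among them Adgre1, Ly6c2, Tnf and Cxcl2, were named after their values were seen.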

Additional observations from a re-analysis of the deposited data

How the results depend on the processing

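Of 157 log2 differences of the 10 genes under other settings, 149 kept their direction, 8 turned and 0 passed the threshold (lowest limma adjusted p 0.0535, for Ccl8 without Aim2 KO replicate 1). Part of the 149 was fixed in advance. Leaving out the filter, a filter at 0.1 FPKM, limma without its trend and the replicate block change the SE and p but not the log2 difference. Those that turned were near 0: Ccl6 (-0.07) ran from -0.35 to 0.17 with each library left out, being 0.0032 without wild type replicate 2. Ccl9 (0.02) ran from -0.19 to 0.27, being -0.0147 without Aim2 KO replicate 3 and -0.0101 without wild type replicate 3, and was -0.0032 with a pseudocount of 0.1 and -0.0049 with median-of-ratios scaling. Csf1 (0.12) ran from -0.0514 to 0.32. The cause was not tested. The scalings moved the median of all genes by -0.03 and 0.01. Of all genes, 1 passed as reported, 68 with array quality weights (weight 0.241 for Aim2 KO replicate 1), and 0 without a filter, with a filter at 0.1 FPKM or after rescaling to TPM. With each library left out there were 0 to 14, with 14 without Aim2 KO replicate 1. The number of the 10 genes past the threshold was 0 under every setting run. The number higher with no overlap was 4 to 7 with each library left out, beside 7.61% to 15.9% of all 22220 genes with a read. That number can only stay at 4 or rise when a library is removed. This count was an alternative chosen after seeing the data, as were the list medians and the summed levels without Aim2 KO replicate 1.

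The replicate numbers matched the libraries only in part. Deviations from the group means correlated across genes at 0.351 and 0.458 for numbers 1 and 2, the best match of these Aim2 KO libraries. For number 3 the correlation was 0.030, and Aim2 KO replicate 3 correlated best with wild type replicate 2 (0.213). Whether the libraries are paired is thus not settled. With the replicate number as a block, 0 genes passed. Depth limits Ccl3, Ccl4, Ccl7 and Ccl12, with at most 37 reads in a library. Intervals cover counting error only, and 3 libraries per genotype cannot give an exact permutation p under 0.1.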
